A study of Mus musculus with 6 samples.

Results

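The inflammatory miRNAs miR-146a, miR-146b, miR-155 and miR-147 were followed in mouse primary mesangial cells, which hold the capillary loops of the kidney glomerulus together and can contract. Every row of these 4 hairpins was taken by name, on either arm, which gave 7 of the 778 mature miRNAs in the table. The arms with a row were mmu-miR-146a-5p, mmu-miR-146b-5p, mmu-miR-146b-3p, mmu-miR-155-5p, mmu-miR-155-3p, mmu-miR-147-3p and mmu-miR-147-5p, where mmu stands for the mouse and is left out from here on. MiR-146a-3p was not analysed here. Of the 7 rows, 3 had enough reads for the test across all miRNAs and 4 did not.

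Small RNA was sequenced from 3 Control libraries and from 3 TGF-b1 libraries, the latter from cells given the profibrotic cytokine transforming growth factor β1, or TGF-β1. The dose was 10 ng/ml and the exposure 72 h. Both groups came from cells at passages 3 to 6, kept in medium with 25.5 mM glucose and 20% serum, so the Control cells were also in high glucose. The labels number the libraries within a group but do not say whether they came from separate cultures, and p-values then measure only the spread between these libraries. The comparison asks whether miRNAs known from innate immune signalling changed in abundance after the cytokine.

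As background, a miRNA hairpin is cut into arms, of which the guide arm is loaded into a silencing complex and pairs with target mRNAs through its seed, bases 2 to 8, while the passenger arm is mostly degraded. The genes of miR-146a and miR-155 are induced through NF-κB when macrophages meet bacterial products or inflammatory cytokines. MiR-146a and miR-146b are known to restrain that signalling by repressing TRAF6 and IRAK1, signalling proteins downstream of Toll-like receptors. MiR-155 is known to promote inflammatory responses by repressing SOCS1 and SHIP1, and miR-147 is induced by Toll-like receptor ligands and lowers cytokine output of macrophages.

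The mature sequences show which members can act on the same targets and which can be confused with each other in read mapping. They are RefSeq sequences on GRCm38.p6, written from 5′ to 3′ with the seed in capitals.
miR-146a-5p: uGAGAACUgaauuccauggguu
miR-146b-5p: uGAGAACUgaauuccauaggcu
miR-146b-3p: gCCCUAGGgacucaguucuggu
miR-155-5p: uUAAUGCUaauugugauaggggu
miR-155-3p: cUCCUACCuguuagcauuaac
miR-147-5p: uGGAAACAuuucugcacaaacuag
MiR-146a-5p and miR-146b-5p had the same seed and the same first 17 bases. They differed at 2 of 22 positions, G18A and U21C, with the miR-146a-5p base first and positions counted from its 5′ end. The other arms shown here shared their seed with 0 other mature miRNAs of the RefSeq table. MiR-147-3p is the other arm that was analysed.

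The hairpins lie at separate loci. On the NCBIM37 mouse genome, Mir146, the hairpin of miR-146a, lies on chromosome 11 between 43187899 and 43187963, minus strand, and overlaps no other annotated gene. Mir146b lies on chromosome 19 between 46417252 and 46417360, plus strand, in an intron of the protein-coding gene Tmem180. Mir155 lies on chromosome 16 between 84714385 and 84714449, plus strand, within an exon of the long non-coding RNA gene annotated under the same name. Mir147 lies on chromosome 2 between 122466539 and 122466617, plus strand, within an exon of the protein-coding gene AA467197, in its untranslated region.

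RPM stands for reads of the named miRNA in every 1000000 reads of its library total. That total was inferred from the values, and which reads it counts is not given in the sources used here. The totals lay between 16478281 and 20169254 reads, so that 1 read was worth 0.0496 to 0.0607 RPM. The limit that a count of 0 allows, 3 reads, was 0.149 to 0.182 RPM. Amplified reads do not each stand for a molecule, so these limits and the intervals below describe counting error alone. Changes were tested with limma on log2(RPM + 1) over 408 miRNAs, and "rose" or "fell" below means a Benjamini-Hochberg adjusted p under 0.05 over all of them. By this rule 49.3% of the tested miRNAs changed, 17.4% upward and 31.9% downward, and their median log2 change was -0.17. This balance moved with the scaling, from 71 higher and 130 lower to 98 higher and 94 lower with TMM and to 95 higher and 73 lower with upper quartile. The listed miRNAs held between 79.5% and 79.8% of the total in the Control libraries and between 71.6% and 73.1% in the TGF-b1 libraries, so that RPM of the total was lower for the sum of all rows in every TGF-b1 library.

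MiR-155-5p and miR-146b-5p were the only abundant members, and they changed places between the groups. In Control, miR-146b-5p ranked 112 and miR-155-5p ranked 122 among the 778 miRNAs by mean RPM. In TGF-b1, miR-155-5p ranked 113 and miR-146b-5p ranked 127. Both lay above the median level of the tested miRNAs, which was 6.55 RPM.

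MiR-146b-5p, which made up nearly all miR-146 reads, was lower after TGF-β1. Its levels were 37.1, 37.5 and 33.5 RPM in Control replicates 1 to 3 and 21.5, 26.3 and 27.4 RPM in TGF-b1 replicates 1 to 3. The groups did not overlap, as was the case for 56.9% of the tested miRNAs and, with TGF-b1 lower, for 36% of them, and TGF-b1 replicate 1 was the lowest library. The mean went from 36.1 ± 2.20 to 25.1 ± 3.12 RPM (SD, n = 3 each), or 0.695 of Control. The log2 change was -0.51 ± 0.13 (SE, limma adjusted p = 0.0143), with a 95% interval from -0.82 to -0.20, and 105 of the 408 tested miRNAs had a lower change. Measured from the median of all tested miRNAs, the change was -0.34, and scaled to the sum of the listed rows, whose share of the total was lower in TGF-b1, it was -0.38 (limma adjusted p = 0.0488).

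The call on miR-146b-5p depended on the scaling between libraries. Scaled by upper quartile the log2 change was -0.21, and scaled by TMM or by median of ratios it was -0.31, and none of these passed (limma adjusted p = 0.424, 0.0827 and 0.0902). With fewer libraries the change was nearly the same size but did not pass, at -0.49 without Control replicate 1 (limma adjusted p = 0.0531) and -0.48 without Control replicate 2 (limma adjusted p = 0.0513). Each library held between 434 and 626 reads of miR-146b-5p. Its 3 TGF-b1 libraries differed by more than counting error, at 7.46 chi-square units per degree of freedom against 2.32 in Control.

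MiR-155-5p, the proinflammatory member, did not pass the test. Its levels were 29.0, 28.1 and 30.8 RPM in Control replicates 1 to 3 and 30.9, 29.3 and 32.4 RPM in TGF-b1 replicates 1 to 3. The groups overlapped, and the spread between the libraries of a group was near that of counting alone, at 1.06 chi-square units per degree of freedom in Control and 1.33 in TGF-b1. The mean was 29.3 ± 1.34 RPM in Control and 30.9 ± 1.53 RPM in TGF-b1 (SD, n = 3 each). The log2 change was 0.07 ± 0.11 (SE, limma adjusted p = 0.63), and its 95% interval ran from -0.19 to 0.33. Over all alternatives the log2 change lay between 0.038 and 0.38, with adjusted p-values from 0.0908 to 0.81.

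The ratio of miR-155-5p to miR-146b-5p reads within a library does not depend on the scaling between libraries. It was chosen after the values were seen and is given as a description, so no p-value is given for it. The ratio was 0.781, 0.749 and 0.917 in Control replicates 1 to 3 and 1.44, 1.11 and 1.18 in TGF-b1 replicates 1 to 3. Every Control library held more miR-146b-5p and every TGF-b1 library held more miR-155-5p. Groups that do not overlap were common, at 56.9% of the single miRNAs tested, and ratios of other pairs were not examined. The mean ratio was 0.816 ± 0.0892 over the Control libraries and 1.24 ± 0.169 over the TGF-b1 libraries (SD, n = 3 each). The means differed by 0.428. Levels of different miRNAs also carry the ligation preference of the library preparation for each sequence, so a ratio of 1 does not mean equal molecules.

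**Figure D1:**
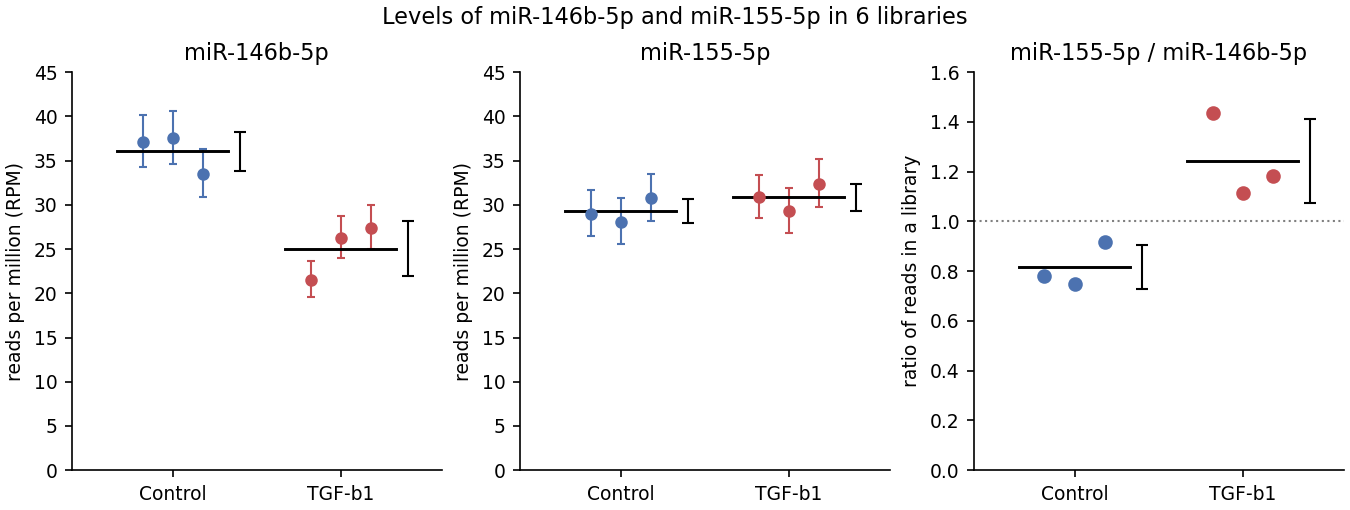
Levels of miR-146b-5p and miR-155-5p in RPM and the ratio of miR-155-5p to miR-146b-5p reads, each point 1 library with replicates 1 to 3 from left to right, coloured bars the 95% Poisson counting interval, black lines the group mean and black bars the SD. MiR-146b-5p lies between 33.5 and 37.5 RPM in Control and between 21.5 and 27.4 in TGF-b1, miR-155-5p overlaps between the groups, and the ratio is below 1 in the 3 Control libraries and above 1 in the 3 TGF-b1 libraries.

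MiR-147-3p, the Toll-like receptor induced member, rose from a level near the detection limit. Control replicates 1 to 3 held 4, 0 and 2 reads of it, and TGF-b1 replicates 1 to 3 held 12, 13 and 14. These were 0.243, 0 and 0.113 RPM in Control, where the count of 0 allows up to 0.180 RPM, and 0.595, 0.726 and 0.819 RPM in TGF-b1. The groups did not overlap, with TGF-b1 higher, as in 20.8% of the tested miRNAs, and the TGF-b1 libraries differed by less than counting error, at 0.336 chi-square units per degree of freedom.

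The mean of miR-147-3p went from 0.119 ± 0.121 to 0.713 ± 0.113 RPM (SD, n = 3 each). Pooled over the libraries, 6 reads in Control stood against 39 in TGF-b1, a ratio of 5.98 with a 95% exact counting interval from 2.52 to 17.3. The log2 change of RPM + 1 was 0.62 ± 0.13 (SE, limma adjusted p = 0.0051), which understates the change of a miRNA below 1 RPM. MiR-147-3p passed the filter on low reads through its TGF-b1 libraries alone, so high TGF-b1 reads were a condition of its being tested. Without any filter it also passed (limma adjusted p = 0.00349). That run and the other alternatives use the same reads and are no separate support. MiR-147-3p kept its direction and passed in every alternative that could be run except the added requirement of an absolute log2 change above 1. That requirement was met by 12.3% of the tested miRNAs, and by 4.41% upward. The adjusted p-values of miR-147-3p lay between 0.00163 and 0.019.

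The place of miR-147-3p among the 408 tested miRNAs depended on how low values were treated. With a pseudocount of 1, 44 of the 408 tested miRNAs had a higher log2 change, and with a pseudocount of 10 there were 95. With a pseudocount of 0.1 there were 4, and 0 had a higher change in edgeR with TMM, edgeR with library totals, DESeq2 or by the ratio of mean RPM, which was 6.01 for miR-147-3p. Rows below the filter have no place in this order, and some had higher ratios from fewer reads, such as 8.11 for miR-147-5p. A row with so few Control reads enters the order only if its TGF-b1 reads are high. Its high place by ratio thus follows in part from the filter. The edgeR log2 change of miR-147-3p was 2.66 with TMM (adjusted p = 0.00694). By rank of mean RPM, miR-147-3p went from 540 in Control to 378 in TGF-b1.

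The other arm of the same hairpin, miR-147-5p, was rarer still. Control replicates 1 to 3 held 0, 0 and 1 reads of it, and TGF-b1 replicates 1 to 3 held 0, 3 and 5. The groups overlapped, since TGF-b1 replicate 1 had no read. Pooled, 1 read stood against 8, a ratio of 7.36 with a 95% exact counting interval from 0.987 to 327. MiR-147-5p did not reach the filter on low reads, and without a filter it did not pass (limma adjusted p = 0.195).

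**Figure D2:**
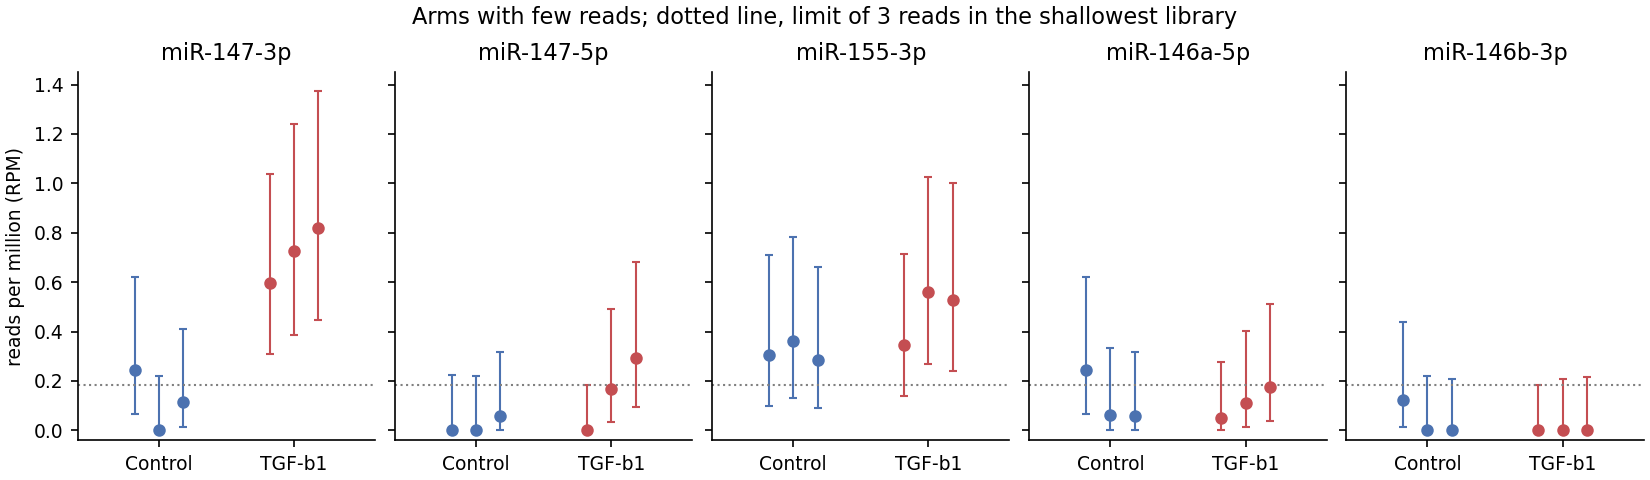
RPM of the 5 arms with few reads, each point 1 library with replicates 1 to 3 from left to right and bars the 95% Poisson counting interval, the dotted line marking 3 reads in the shallowest library (0.182 RPM). The 3 TGF-b1 libraries of miR-147-3p lie at 0.595 RPM or more, above its 3 Control libraries at 0.243 RPM or less, while the other arms overlap between the groups.

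MiR-155-3p, the passenger arm of miR-155, also had few reads. Control replicates 1 to 3 held 5, 6 and 5 reads, and TGF-b1 replicates 1 to 3 held 7, 10 and 9. In RPM, TGF-b1 replicate 1 at 0.347 lay below Control replicate 2 at 0.360, so the groups overlapped. The pooled ratio was 1.50 with a 95% exact counting interval from 0.773 to 2.98, and without a filter the arm did not pass (limma adjusted p = 0.246).

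As a share of both arms of the hairpin, miR-155-3p took 1.07% ± 0.177 in the Control libraries and 1.53% ± 0.384 in the TGF-b1 libraries (SD, n = 3 each). The difference of 0.456 percentage points was larger than either SD, but the groups overlapped and it did not pass (exact two-sided permutation p = 0.2, n = 3, where the smallest possible is 0.1). The exact 95% interval of a single library was wide, from 0.448% to 2.28% in TGF-b1 replicate 1 and from 0.900% to 3.41% in TGF-b1 replicate 2. The 5p arm was thus the guide arm of miR-155 in all 6 libraries, with at least 469 reads in each against at most 10 of the 3p arm.

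MiR-146a-5p, the best known NF-κB feedback miRNA, was close to the detection limit in both groups. Control replicates 1 to 3 held 4, 1 and 1 reads of it, and TGF-b1 replicates 1 to 3 held 1, 2 and 3. Pooled, 6 reads stood against 6, a ratio of 0.920 with a 95% exact counting interval from 0.246 to 3.44. The arm did not reach the filter on low reads, and without a filter it did not pass (limma adjusted p = 0.967). The interval leaves room for changes within its bounds, which these counts could not resolve.

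Within the miR-146 family the reads came almost entirely from miR-146b. MiR-146b-5p took 99.7% ± 0.280 of the reads of both 5p arms in the Control libraries and 99.6% ± 0.204 in the TGF-b1 libraries (SD, n = 3 each). The lowest share was 99.4% in Control replicate 1 (612 of 616 reads, exact 95% interval 98.3% to 99.8%). The difference of -0.10 percentage points did not exceed the spread between libraries (exact two-sided permutation p = 0.6, n = 3). Since the arms differ at 2 bases near the 3′ end, a few reads of the abundant arm could be counted as the rare one where mismatches are allowed. How many mismatches were allowed is not given in the sources used here, and their part in the miR-146a-5p reads was not tested.

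MiR-146b-3p, the passenger arm, had 2 reads in Control replicate 1 and 0 reads in the other 5 libraries. Among the reads of both arms it took 0.326% in Control replicate 1, with an exact 95% interval from 0.0395% to 1.17%. In TGF-b1 replicate 1, 0 of 434 reads allow a share of up to 0.691% as 3 reads of the total, or 0.846% as the exact 95% upper bound. The mean share was 0.109% in Control and 0% in TGF-b1 (exact two-sided permutation p = 1, n = 3). The arm did not reach the filter on low reads, and without a filter it did not pass (limma adjusted p = 0.493). A fall from 2 reads could not be resolved at this depth.

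**Figure D3:**
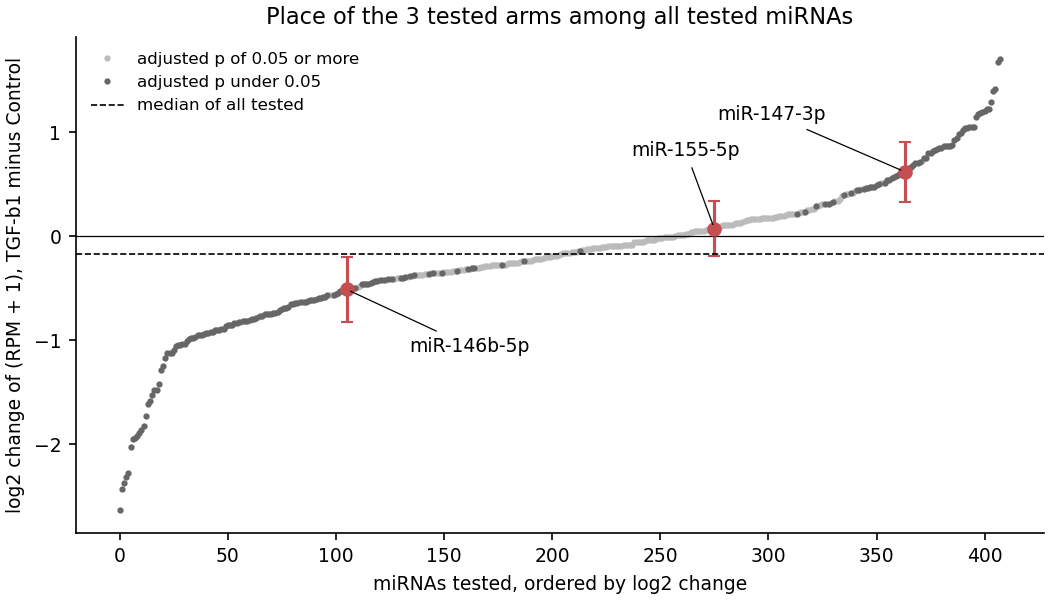
The 408 tested miRNAs in order of their log2 change of RPM + 1, TGF-b1 minus Control, dark where the limma adjusted p was under 0.05, with the 3 tested members in red and bars for their 95% intervals. MiR-146b-5p lies at -0.51 below the dashed median of -0.17, miR-155-5p at 0.07 and miR-147-3p at 0.62.

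Profiles most like those of the abundant members were found by the root mean square difference, over the 6 libraries, of log2(RPM + 1) from its Control mean, among 178 miRNAs of at least 10 RPM. For miR-146b-5p these were miR-26b-5p, miR-340-5p and miR-30e-5p, with differences of 0.11, 0.12 and 0.13 on the log2 scale, against a median of 0.40 over the candidates. Their own log2 changes were -0.53, -0.50 and -0.45. For miR-155-5p these were miR-669c-5p, let-7a-5p and let-7d-5p, with differences of 0.06, 0.07 and 0.07, and a median of 0.41 over the candidates. All 3 did not pass the test, with log2 changes of 0.04, 0.06 and 0.04. The measure takes in the TGF-b1 libraries, so for both members a log2 change near the member's own follows from the choice.

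Other miRNAs known from innate responses moved in both directions, as the tested miRNAs did as a whole. Of 18 on a list of such miRNAs, 17 were analysed and tested, of which 2 rose, 6 fell and 9 did not pass, beside 17.4% rising and 31.9% falling among all tested miRNAs. Their median log2 change was -0.06 against -0.17 for all tested miRNAs, and it turned to 0.16 with TMM scaling, where 5 rose and 4 fell. The 2 that rose were let-7e-5p and miR-125b-5p, with log2 changes of 0.50 and 0.47, named after their values were seen. The 3 changes of largest size were falls. MiR-27b-3p, which is induced by lipopolysaccharide in macrophages, went from 840.2 ± 49.4 to 221.2 ± 110.2 RPM (SD, n = 3 each, log2 change -2.03 ± 0.29 SE, limma adjusted p = 0.00105). MiR-187-3p, an IL-10 induced miRNA of monocytes, went from 4.77 ± 0.948 to 2.06 ± 0.666 RPM (SD, n = 3 each, log2 change -0.93 ± 0.21 SE, limma adjusted p = 0.00732). Let-7i-5p, which represses the receptor TLR4, went from 13622 ± 1793 to 7585 ± 1360 RPM (SD, n = 3 each, log2 change -0.85 ± 0.13 SE, limma adjusted p = 0.00166). These 3 falls passed under each of the 4 other scalings.

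Markers of other cells were read because miR-155 and miR-146a are abundant in leukocytes. The 4 leukocyte and blood markers analysed, miR-142-5p, miR-150-5p, miR-144-3p and miR-451, summed to between 0.170 and 0.659 RPM in Control and between 0.198 and 0.293 RPM in TGF-b1. Their summed level thus overlapped between the groups and reached at most 11 reads in a library. By marker, pooled reads in Control and TGF-b1 were 10 and 1 for miR-451 and 5 and 9 for miR-142-5p. For miR-150-5p they were 3 and 3, and for miR-144-3p 0 and 1. The list held 6 such markers, of which miR-142a-3p and miR-223-3p were not analysed here. The part of leukocytes in the miR-155-5p reads was not tested. The 2 endothelial markers, miR-126-3p and miR-126-5p, summed to at most 0.297 RPM. The mesangial and mesenchymal markers miR-143-3p, miR-145-5p, miR-199a-3p and miR-214-3p were all present and summed to between 2575 and 2946 RPM in Control and between 2603 and 3066 RPM in TGF-b1. These sums were carried by miR-143-3p, at 2029 and 2052 RPM, while miR-145-5p rose from 127.4 to 238.6 RPM (log2 change 0.92, limma adjusted p = 0.00235) and miR-199a-3p fell from 601.3 to 484 RPM (log2 change -0.31, limma adjusted p = 0.0219).

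Some markers of other lineages were well above the detection limit. The 5 epithelial markers summed to between 22.2 and 25.4 RPM in Control and between 1.67 and 2.53 RPM in TGF-b1, with miR-200a-3p, miR-200b-3p and miR-429-3p falling and miR-200c-3p and miR-141-3p at 3 and 1 reads in all. The liver marker miR-122-5p fell from 26.1 to 13.5 RPM and the neuronal marker miR-124-3p from 1.38 to 0.694 RPM. The 3 muscle markers summed to between 3285 and 3646 RPM over all libraries. This sum was carried by miR-206-3p, at a mean of 3502 RPM in Control and 3363 RPM in TGF-b1. MiR-1a-3p lay at 9.99 and 10.8 RPM, and miR-133a-3p had 4 reads in Control and 2 in TGF-b1. The 3 tested epithelial markers and the single liver and neuronal markers fell, as did miR-146b-5p and 31.9% of all tested miRNAs. The part of these markers in the change of miR-146b-5p was not tested. In bulk RNA, fewer cells of a type and less RNA per cell cannot be told apart.

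**Figure D4:**
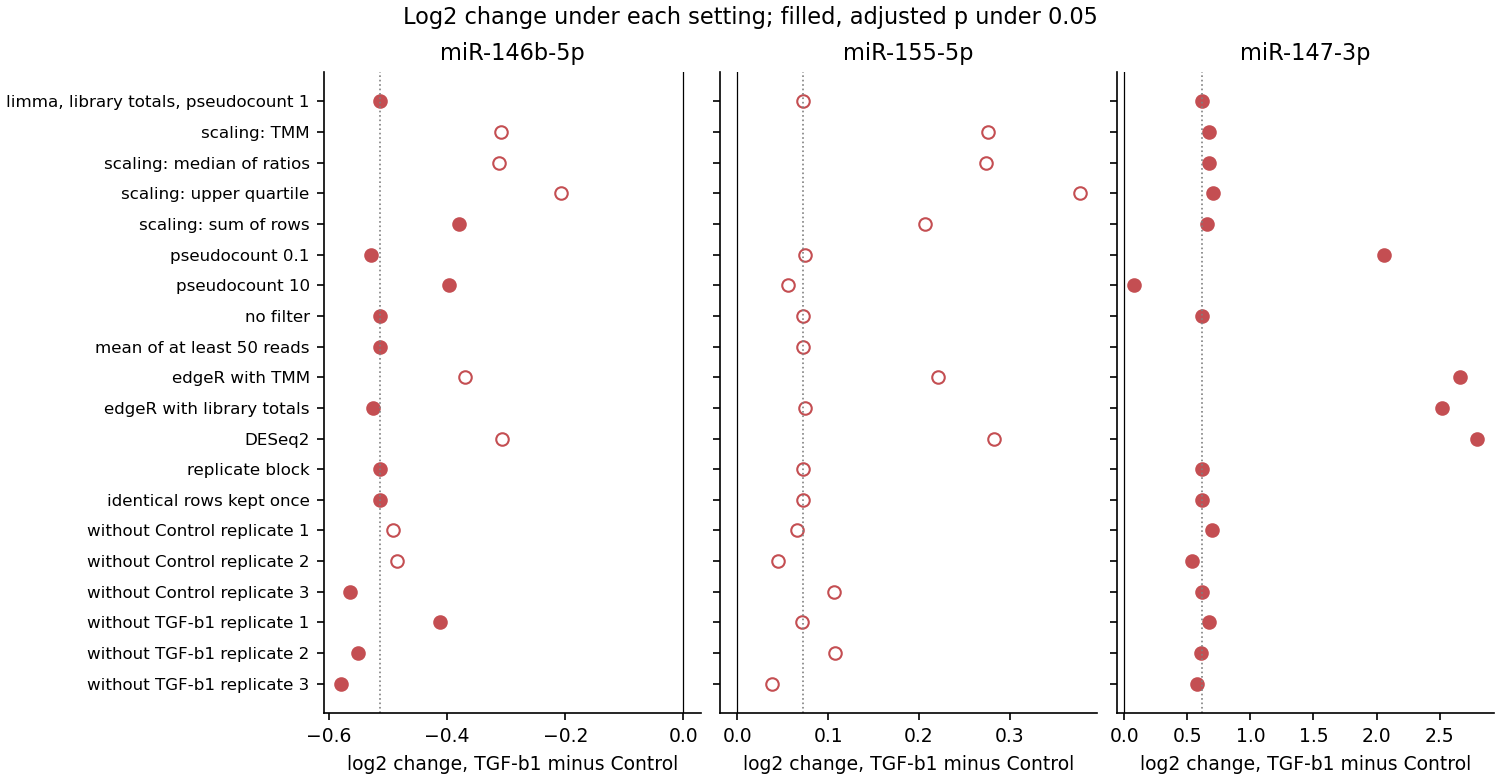
Log2 change of the 3 tested members, TGF-b1 minus Control, under each setting, with each panel on its own scale, filled points where the adjusted p was under 0.05, open points where it was not, and a dotted line at the value as reported. MiR-146b-5p stays below 0 but is open in 7 settings, miR-155-5p stays above 0 and is open in all, and miR-147-3p is filled in all of its settings.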

How the data were processed

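Per the labels and the methods of the study, TRIzol-extracted RNA was made into small RNA libraries for Illumina sequencing. The authors trimmed adaptors, discarded short and poor reads and mapped the remainder to known miRNAs with Bowtie. Their deposited table calls its values TPM. The authors' values are RPM, reads scaled to the library total with no length scaling, since within a tolerance of 0.002 reads 100% of them are whole reads of a single total per library. How reads matching several miRNAs were counted is not given in the sources used here.

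Whole reads were recovered, and miRNAs were kept by filterByExpr of edgeR 4.0.16 with a minimum count of 10. Log2(RPM + 1) was then fitted in R 4.3.3 by limma 3.58.1 with the prior variance trended on abundance, with group as the only term and Benjamini-Hochberg adjustment. Alternatives were TMM, median-of-ratios, upper-quartile and sum-of-rows scaling, pseudocounts of 0.1 and 10, keeping every row, keeping rows of a mean of 50 reads or more, edgeR and DESeq2 1.42.0 on the recovered reads, a replicate block, identical rows kept once, an absolute log2 change above 1 and each library left out. Within-library shares were compared with exact permutation tests (scipy 1.17.1). The fits were also run on simulated reads, whose settings did not copy the difference between the groups in the share of listed miRNAs. That run does not bear on the choice of scaling.

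The members and lists were chosen with earlier results of these data known. Named are the members' arms, the 3 largest changes that passed on the innate-response list, the cell type markers, and the 3 most alike profiles of members of at least 10 RPM. The innate-response list held miR-9-5p, miR-21-5p, miR-27b-3p, miR-29b-3p, miR-99b-5p, miR-125a-5p, miR-125b-5p, miR-132-3p, miR-181b-5p, miR-187-3p, miR-210-3p, miR-212-3p, miR-221-3p, miR-222-3p, miR-223-3p, miR-301a-3p, let-7e-5p and let-7i-5p. Hairpin positions came from GENCODE vM1 on NCBIM37, the build the study used for its RNA reads. Of the 8 arms, 7 matched a RefSeq mature sequence, each of which was found in its hairpin on NCBIM37.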

Additional observations from a re-analysis of the deposited data

How the results depend on the processing

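EdgeR with library totals, and the ratio of miR-155-5p to miR-146b-5p with its alternatives, were chosen after seeing the data. The log2 change of miR-146b-5p kept its direction in all 20 alternatives and no longer passed in 8: TMM (-0.31), median of ratios (-0.31), upper quartile (-0.21), edgeR with TMM (-0.37, adjusted p = 0.0564), DESeq2 (-0.31, adjusted p = 0.175), without Control replicate 1 (-0.49), without Control replicate 2 (-0.48), and the added threshold of an absolute log2 change above 1 (-0.51). Leaving out each library gave -0.58 to -0.41. That threshold also ended the call of miR-147-3p (0.62), left 50 miRNAs passing in place of 201, 18 higher in place of 71 and 32 lower in place of 130, and left 1 of 17 innate-response miRNAs in place of 8; a stricter threshold gives fewer by construction. The lower calls numbered 73 with upper quartile and 72 with DESeq2. The median log2 change of the innate-response miRNAs reversed from -0.06 to 0.16 (TMM, and also DESeq2), 0.15 (median of ratios), 0.26 (upper quartile), 0.084 (sum of rows) and 0.099 (edgeR with TMM); the cause was not tested. The scaling also moved the median of all tested miRNAs, from -0.17 to -0.03 with TMM and 0.07 with upper quartile. MiR-147-3p had no value with a mean of at least 50 reads.

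Leaving out each library gave log2 changes of 0.54 to 0.70 for miR-147-3p and 0.038 to 0.11 for miR-155-5p, 0.332 to 0.493 for the difference of the miR-155-5p to miR-146b-5p ratio, and -0.163 to 0 percentage points for the miR-146b-3p share, with 0 without Control replicate 1. The log2 ratio of reads could not be taken for miR-146b-3p, which had libraries at 0. Libraries of the same replicate number did not deviate together from their group means (correlations of -0.08, -0.21 and -0.35), so the numbers were not read as pairs. With the replicate block 176 miRNAs passed, the log2 change of miR-146b-5p was -0.51 with an adjusted p of 0.04, that of miR-147-3p 0.0158 and that of miR-155-5p 0.705. The arms with fewer than 50 reads in all are limited by depth.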
